A study of Homo sapiens with 8 samples.

Results

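Genes named as antisense to another gene were followed in BT-549, an established triple negative breast cancer (TNBC) cell line of mesenchymal type. They were taken by name alone, as the symbols ending in -AS1, -AS2 or -AS3, and 75 of the 23228 genes listed met this rule. The GENCODE annotation now lists AATK-AS1, ATPAF1-AS1 and HOXB13-AS1 as protein coding, under other symbols. It lists ABHD11-AS1, TP73-AS1 and ZNRD1-AS1 as transcribed pseudogenes, so not all 75 are listed as noncoding antisense RNAs. Cells were exposed for 24 h to vehicle (DMSO), to 100 nM EC359, to 10 µM vorinostat, or to the combination of these doses. Total RNA was extracted, and libraries for RNA-seq were made with the TruSeq RNA preparation of Illumina, with 2 libraries per group and 8 in all. The study's methods do not say whether poly(A) RNA was selected, which bears on which antisense RNAs can be seen. EC359 is an inhibitor of the leukemia inhibitory factor receptor (LIFR), and vorinostat is a histone deacetylase inhibitor (HDACi). Every group is the same parental line in the same medium, with no engineered allele. The study's methods state biological replicates for its in vitro work in general. The labels number the libraries of a group 1 and 2 and do not say whether these were separate cultures, so p-values measure only the spread between these libraries.

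An antisense RNA is transcribed from the strand opposite to its namesake, the sense gene. Some antisense RNAs start beside the promoter of the sense gene and run away from it, and others run across its exons or introns. Known members act on chromatin at their own locus, host small nucleolar RNAs or bind other RNAs, and for many no function is established. HDAC inhibitors raise histone acetylation, a mark of open chromatin at promoters and enhancers, and the comparisons ask how these RNAs and their sense genes differed with each drug.

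Counts on genes ranged from 19069450 to 24759041 per library, and values are given as normalized counts on a scale of 1e6 gene counts (CPM), with no correction for gene length. The mesenchymal label was met by VIM at 2056 to 9442 CPM and FN1 at 1879 to 4588 CPM. ESR1 reached at most 1.02 CPM and PGR at most 0.0511 CPM, whereas ERBB2 was at 12.0 to 102 CPM. The leukocyte marker PTPRC reached at most 0.708 CPM and the T cell marker CD3E at most 0.0425 CPM. In bulk RNA, a change in every cell and a change in the share of cells cannot be told apart.

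Whether reads were counted by strand is not given in the sources used here, and it matters for this family. Of the 75 genes, 68 could be placed on GRCh37, and 64 of these crossed a gene of the other strand. Among the 25 placed genes that were tested, 22 crossed such a gene in GENCODE and 3 did not. These 3 were BSN-AS2, PAN3-AS1 and UBAC2-AS1, named here after their values were seen. By its RefSeq start, however, PAN3-AS1 began 629 bases inside PAN3 on the opposite strand. The tested genes AKIRIN2-AS1 and NPPA-AS1 could not be placed, so their overlap with other genes is not known here. Over the 25, the share of exon bases in exons of the other strand had a median of 8.03% and reached 61.1% in A1BG-AS1. Among the 43 placed genes that were not tested, 33 had some exon bases in exons of the other strand, with a median share over the 43 of 8.85% and a highest of 97.8%. Without strand, reads from such bases cannot be told apart. The same limit holds for exon bases that lie in introns of a gene of the other strand. The share of uniquely aligned reads that HTSeq set aside as ambiguous between genes was 0.814% and 0.838% with vehicle. It was 0.845% and 0.850% with EC359, 0.718% and 0.711% with vorinostat, and 0.649% and 0.652% with the combination. This share was lower in each of the 4 libraries with vorinostat, and its part in the results was not tested.

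Most antisense genes had few or no counted reads. Of the 75, 22 had no read in any library, 26 had reads but did not pass the filter on low counts, and 27 were tested. A count of 0 allows up to 3 reads, or 0.124 to 0.154 CPM, and covers counting error only. Between 34 and 45 of the genes had at least 1 read in a library. All 75 together took 0.0179% to 0.0240% of the gene counts of a library, and ZNFX1-AS1 alone took 44.9% to 69.0% of that. Only 15 genes had 10 or more reads in every library, and 4 had 100 or more (A1BG-AS1, TP73-AS1, ZEB1-AS1 and ZNFX1-AS1).

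A sense gene with many reads often stood beside an antisense gene with few. In 28 of the 74 pairs with a counted sense gene, the sense gene was tested and the antisense gene was not. ENO1, a glycolytic enzyme, had 56422 to 102076 reads, whereas ENO1-AS1 had 0 to 8. GNAS, the stimulatory G protein alpha subunit, had 11071 to 33534 reads, and GNAS-AS1 had 1 read in a single library. PCNA, the sliding clamp of DNA replication, had 5274 to 8179 reads, and PCNA-AS1 had 0 to 6. AFAP1-AS1, known from several carcinomas, had 0 to 2 reads, and ADAMTS9-AS2 and DSCAM-AS1 had none. The reverse was seen in 2 pairs. TP73-AS1 had 146 to 330 reads beside 0 to 7 for TP73, a relative of p53, and NPPA-AS1 had 2 to 31 beside none for NPPA, the atrial natriuretic peptide gene. Reads that fall in exons of both genes can be set aside as ambiguous where strand is not used, so a low antisense count need not mean silence. In GENCODE, exons of the other strand take 27.6% of the exon bases of ENO1-AS1, 30.8% of GNAS-AS1 and 42.2% of AFAP1-AS1. ENO1-AS1 and NPPA-AS1 were named here after their values were seen. ASMTL-AS1 and PPP2R3B-AS1 were at 0 together with their sense genes. All of these lie in the pseudoautosomal region shared by X and Y, where a read can align to either copy, so their 0 does not show that they are silent.

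**Figure D1:**
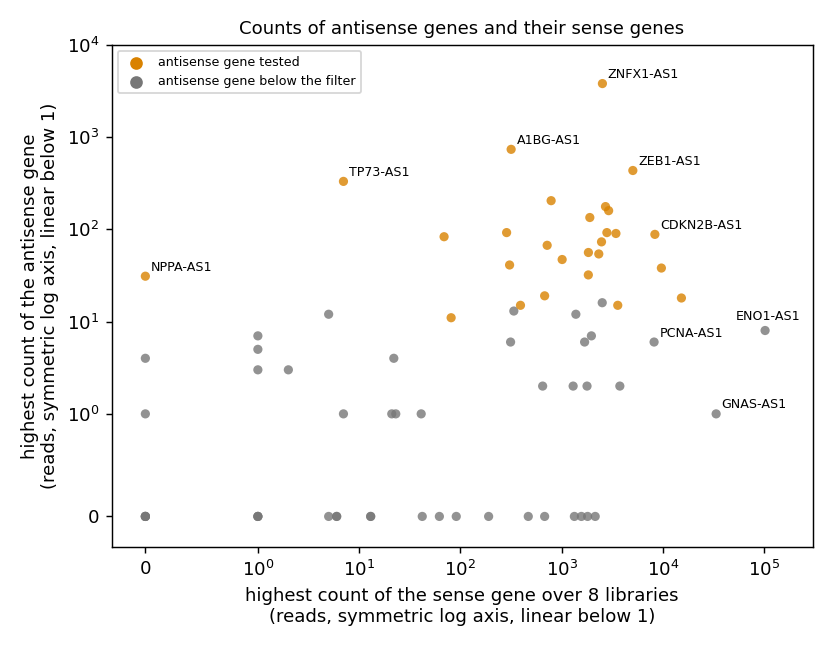
Highest read count over 8 libraries for each antisense gene (vertical axis) against that of its sense gene (horizontal axis), for the 74 pairs with a counted sense gene, on symmetric log axes that are linear below 1. The 27 tested genes (orange) include NPPA-AS1 and TP73-AS1 at the left, with next to no sense reads, and the genes below the filter (gray) include ENO1-AS1, GNAS-AS1 and PCNA-AS1 at the right, under abundant sense genes.

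Where the antisense genes start was read from RefSeq promoters of 300 bases, from 250 before to 50 after the start. Such a promoter was found for 52 of the 75, and 43 pairs had both starts placed on GRCh37, all on opposite strands. The starts lay within 1000 bases of each other in 15 pairs and further apart in 28. The RBM26-AS1 start was 54 bases upstream of the RBM26 start, whereas GENCODE places it 184 bases inside RBM26. In RefSeq that of ZEB1-AS1 was 678 bases inside ZEB1, and that of CDKN2B-AS1 was 14514 bases beyond the CDKN2B start, past the body of that short gene in its direction of transcription. Promoters of the 19 tested genes held a median of 27 CpG dinucleotides (3 to 47), against 9 (0 to 46) for the 33 that were not tested and 14 for all 27305 promoters. A GC box, GGGCGG on either strand and known as the binding motif of SP1, was in 12 of the 19 and 13 of the 33, and in 44.6% of all promoters. CCAAT was in 15 of the 52, TATAAA in 3, TGACTCA in 2 and TGACGTCA in 1, each on either strand, against 35.7%, 12.0%, 4.92% and 1.98% of all promoters. A match describes these letters and is not evidence of a bound factor.

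The promoters below are a choice among the genes of the results. No RefSeq promoter was found for A1BG-AS1, HAS2-AS1, UCKL1-AS1, TRAF3IP2-AS1 or AKIRIN2-AS1. That of MCM3AP-AS1, also called with vorinostat, held 7 GC boxes and is not shown. CDKN2B-AS1 and ZEB1-AS1 are shown with their sense genes because each pair moved apart with vorinostat, MFI2-AS1 because it fell furthest, and RBM26-AS1 and TIPARP-AS1 because they rose with vorinostat and start 54 and 1123 bases from the sense start. They are written 5′ to 3′ on the strand of the gene (RefSeq sequence, placed on GRCh37), with each GC box on either strand in capitals. CDKN2B-AS1 lies at chr9:21994540-21994839 on the plus strand, CDKN2B at chr9:22009255-22009554 on the minus strand, ZEB1-AS1 at chr10:31607975-31608274 on the minus strand and ZEB1 at chr10:31607096-31607395 on the plus strand. MFI2-AS1 lies at chr3:196729527-196729826 on the plus strand, RBM26-AS1 at chr13:79980194-79980493 on the plus strand and TIPARP-AS1 at chr3:156393453-156393752 on the minus strand.
CDKN2B-AS1: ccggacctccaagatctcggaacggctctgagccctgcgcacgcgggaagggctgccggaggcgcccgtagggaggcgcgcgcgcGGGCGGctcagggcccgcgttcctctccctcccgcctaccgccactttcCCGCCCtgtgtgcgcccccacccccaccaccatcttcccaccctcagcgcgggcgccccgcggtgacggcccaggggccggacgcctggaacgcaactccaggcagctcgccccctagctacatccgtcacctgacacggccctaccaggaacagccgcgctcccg
CDKN2B: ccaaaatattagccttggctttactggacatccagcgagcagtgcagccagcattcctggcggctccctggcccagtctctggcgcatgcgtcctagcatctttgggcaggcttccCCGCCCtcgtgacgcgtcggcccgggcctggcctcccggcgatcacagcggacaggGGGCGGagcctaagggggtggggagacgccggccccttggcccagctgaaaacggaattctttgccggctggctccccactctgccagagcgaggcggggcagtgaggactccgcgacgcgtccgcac
ZEB1-AS1: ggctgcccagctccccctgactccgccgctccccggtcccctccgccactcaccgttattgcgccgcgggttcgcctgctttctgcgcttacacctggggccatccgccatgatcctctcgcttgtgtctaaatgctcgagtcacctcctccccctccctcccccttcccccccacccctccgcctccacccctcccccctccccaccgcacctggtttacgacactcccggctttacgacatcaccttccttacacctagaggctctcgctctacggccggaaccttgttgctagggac
ZEB1: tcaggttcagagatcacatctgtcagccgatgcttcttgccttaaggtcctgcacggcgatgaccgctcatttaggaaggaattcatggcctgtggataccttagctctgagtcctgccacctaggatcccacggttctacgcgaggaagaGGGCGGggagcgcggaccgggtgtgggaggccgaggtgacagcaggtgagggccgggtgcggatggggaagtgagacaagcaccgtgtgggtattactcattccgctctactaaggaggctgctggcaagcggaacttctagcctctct
MFI2-AS1: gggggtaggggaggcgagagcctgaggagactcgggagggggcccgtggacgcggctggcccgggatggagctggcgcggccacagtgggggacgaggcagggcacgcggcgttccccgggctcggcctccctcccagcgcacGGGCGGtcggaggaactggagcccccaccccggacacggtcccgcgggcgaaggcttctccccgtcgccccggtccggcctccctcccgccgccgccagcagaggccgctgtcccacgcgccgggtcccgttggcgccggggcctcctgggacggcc
RBM26-AS1: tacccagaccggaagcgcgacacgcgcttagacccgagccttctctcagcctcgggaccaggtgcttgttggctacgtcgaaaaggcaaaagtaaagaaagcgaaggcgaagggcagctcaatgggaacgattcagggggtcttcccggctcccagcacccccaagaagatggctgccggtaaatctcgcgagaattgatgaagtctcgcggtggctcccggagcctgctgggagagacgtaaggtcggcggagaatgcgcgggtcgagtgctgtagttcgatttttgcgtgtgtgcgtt
TIPARP-AS1: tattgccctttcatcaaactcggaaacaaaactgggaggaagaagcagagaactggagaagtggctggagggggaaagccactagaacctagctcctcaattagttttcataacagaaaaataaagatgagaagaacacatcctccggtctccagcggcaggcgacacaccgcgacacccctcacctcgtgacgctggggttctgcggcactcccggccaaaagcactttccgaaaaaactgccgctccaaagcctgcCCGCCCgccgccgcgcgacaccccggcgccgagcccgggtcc
All 7 windows were richer in CpG than the median promoter, with 36 for CDKN2B-AS1, 25 for CDKN2B, 21 for ZEB1-AS1, 17 for ZEB1, 38 for MFI2-AS1, 28 for RBM26-AS1 and 22 for TIPARP-AS1. RBM26-AS1 and ZEB1-AS1 had no GC box in this window, and the other 5 had 1 or 2.

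Vorinostat moved the antisense genes in both directions. A gene was called where edgeR's quasi-likelihood test gave an adjusted p under 0.01 (Benjamini-Hochberg, over all tested genes) and the log2 fold change was beyond 1 in either direction. By this rule vorinostat changed 8 of the 27 tested genes (29.6%) against vehicle, 4 higher and 4 lower. Of all 13694 tested genes 30.1% were called, 16.8% higher and 13.3% lower. The share of antisense genes was thus near that of all genes. Most antisense genes were of low level, and 7 of the 8 came from the 23 with an average log2 CPM under 3, a range in which 37.3% of all genes were called. The median log2 fold change was 0.42, with 14 genes above 0 and 13 below, against a median of 0.03 for all genes. At an adjusted p under 0.05 with no fold threshold, 11 of the 27 passed (edgeR), where 65.5% of all genes did. With 1 library left out, 2 to 8 antisense genes were called, with 4 without vehicle 1, 2 without vehicle 2, 4 without vorinostat 1 and 3 without vorinostat 2.

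A1BG-AS1 had the lowest adjusted p of the antisense genes with vorinostat. Its level was 9.72 and 9.30 CPM with vehicle, 6.47 and 7.51 with EC359, 30.0 and 31.2 with vorinostat, and 22.0 and 20.9 with the combination. All 4 libraries with vorinostat lay above the other 4, and the log2 fold change with vorinostat was 1.69 (SE 0.13, adjusted p = 6.6e-06, edgeR). This call held under each of the alternatives tried. A1BG encodes a plasma glycoprotein, and its level went from 8.36 and 12.0 CPM with vehicle to 15.2 and 13.5 with vorinostat, a log2 fold change of 0.49 (SE 0.22, adjusted p = 0.081, edgeR). A1BG-AS1 spans chr19:58859084-58866821 on the plus strand and has 61.1% of its exon bases in exons of the other strand, the most among the tested genes. All 3374 of its exon bases lie within the spans of genes of the other strand.

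TIPARP-AS1, RBM26-AS1 and UCKL1-AS1 rose from low levels. Of these, TIPARP-AS1 and UCKL1-AS1 passed the filter on low counts only through libraries with vorinostat, so the filter favored a rise. TIPARP-AS1 was at 0.236 and 0.187 CPM with vehicle (5 and 4 reads), 0.536 and 0.355 with EC359, 1.75 and 1.62 with vorinostat (34 and 38 reads), and 1.18 and 1.79 with the combination. The libraries with vorinostat were all above the others, with a log2 fold change of 2.96 (SE 0.50, adjusted p = 0.00069, edgeR). TIPARP, a mono-ADP-ribosyltransferase induced by the aryl hydrocarbon receptor, moved the same way by 0.58 (SE 0.09, adjusted p = 0.00034, edgeR), below the fold threshold. RBM26-AS1 was at 1.13 and 0.934 CPM with vehicle, 1.81 and 1.12 with EC359, 3.24 and 3.83 with vorinostat, and 2.56 and 1.69 with the combination, whose lower library overlapped the EC359 group. Its log2 fold change with vorinostat was 1.77 (SE 0.36, adjusted p = 0.0020, edgeR). RBM26, an RNA-binding protein of nuclear RNA decay, had a value of -0.63 (SE 0.19, adjusted p = 0.018, edgeR).

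UCKL1-AS1 was at 0.189 and 0.234 CPM with vehicle (4 and 5 reads), 0.577 and 0.304 with EC359, 0.926 and 1.36 with vorinostat, and 1.48 and 2.40 with the combination. All libraries with vorinostat were above the rest, and the log2 fold change with vorinostat was 2.41 (SE 0.58, adjusted p = 0.0051, edgeR). UCKL1, a uridine-cytidine kinase family member, had a value of -0.74 (SE 0.20, adjusted p = 0.0085, edgeR). These 3 calls depended on single libraries. TIPARP-AS1 passed in each case except without vehicle 2 (adjusted p = 0.012, edgeR). RBM26-AS1 was lost without vehicle 1, vehicle 2 or vorinostat 2 (adjusted p = 0.014, 0.023 and 0.020, edgeR). UCKL1-AS1 was lost without vehicle 1, vehicle 2, vorinostat 1 or vorinostat 2 (adjusted p = 0.045, 0.033, 0.013 and 0.048, edgeR).

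MFI2-AS1 fell furthest with vorinostat. Its level was 3.92 and 2.80 CPM with vehicle, 1.32 and 2.23 with EC359, 0.463 and 0.553 with vorinostat, and 0.614 and 0.766 with the combination. The 4 libraries with vorinostat lay below the other 4, and the log2 fold change was -2.70 (SE 0.42, adjusted p = 0.00039, edgeR), a call that held under each alternative. MFI2 encodes melanotransferrin, an iron-binding surface protein, and both genes now carry the MELTF name. MFI2 itself was at 2.88 and 2.71 CPM with vehicle and 2.26 and 2.93 with vorinostat, a log2 fold change of -0.10 (SE 0.29, adjusted p = 0.78, edgeR). MFI2-AS1 spans chr3:196726331-196731615 on the plus strand, with 44.9% of its exon bases in exons of the other strand. All 1139 of its exon bases lie within the span of MFI2, and a share of MFI2 intron reads in its counts was not tested.

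CDKN2B-AS1, also known as ANRIL, runs across the CDKN2B and CDKN2A locus and is known for binding Polycomb proteins there. It was at 3.97 and 4.11 CPM with vehicle, 3.13 and 3.15 with EC359, 1.80 and 2.04 with vorinostat, and 1.28 and 1.48 with the combination, and the groups did not overlap. With vorinostat its log2 fold change was -1.07 (SE 0.24, adjusted p = 0.0037, edgeR). CDKN2B, which encodes the cell cycle inhibitor p15, went the other way. Its level was 64.7 and 64.3 CPM with vehicle, 36.3 and 27.6 with EC359, 367 and 354 with vorinostat, and 256 and 250 with the combination. The log2 fold change of CDKN2B was 2.48 with vorinostat (SE 0.13, adjusted p = 6.2e-07, edgeR) and -1.01 with EC359 (SE 0.12, adjusted p = 0.00072, edgeR). CDKN2A, the neighboring gene for p16 and ARF, was chosen after its values were seen. Its log2 fold change was -0.93 with vorinostat (SE 0.12, adjusted p = 0.00013, edgeR), so it and CDKN2B did not move together. The CDKN2B-AS1 call with vorinostat lay close to both thresholds and was lost with DESeq2 (adjusted p = 0.018) and without vehicle 1, vehicle 2, vorinostat 1 or vorinostat 2 (adjusted p = 0.022, 0.027, 0.040 and 0.024, edgeR).

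TRAF3IP2-AS1 and MCM3AP-AS1 were the other genes that fell with vorinostat. TRAF3IP2-AS1 was at 3.82 and 3.50 CPM with vehicle, 3.79 and 3.80 with EC359, 1.59 and 1.28 with vorinostat, and 1.13 and 1.84 with the combination. Its log2 fold change with vorinostat was -1.36 (SE 0.30, adjusted p = 0.0031, edgeR). TRAF3IP2, the adaptor of the interleukin 17 receptor, fell with it, by a log2 fold change of -1.07 (SE 0.19, adjusted p = 0.00093, edgeR). TRAF3IP2-AS1 also crosses REV3L, and 3380 of its 6372 exon bases lie within spans of genes of the other strand. REV3L, named here after its values were seen, had a value of -0.52 (SE 0.13, adjusted p = 0.0058, edgeR). MCM3AP-AS1 was at 4.34 and 2.66 CPM with vehicle, 2.80 and 2.69 with EC359, 1.03 and 1.53 with vorinostat, and 0.972 and 1.79 with the combination. Its log2 fold change with vorinostat was -1.44 (SE 0.39, adjusted p = 0.0093, edgeR). MCM3AP, a protein of messenger RNA export, had a value of -0.69 (SE 0.10, adjusted p = 0.00034, edgeR). Both calls were lost without vehicle 1, vehicle 2, vorinostat 1 or vorinostat 2, with an adjusted p of 0.024, 0.015, 0.015 and 0.037 for TRAF3IP2-AS1 and of 0.093, 0.010, 0.076 and 0.025 for MCM3AP-AS1 (edgeR). The MCM3AP-AS1 call was lost in 9 of 15 alternatives. Beside these 4 it was lost with RLE scaling, total-count scaling, the stricter filter and the replicate block (adjusted p = 0.010, 0.010, 0.010 and 0.015, edgeR) and with DESeq2 (adjusted p = 0.011).

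**Figure D2:**
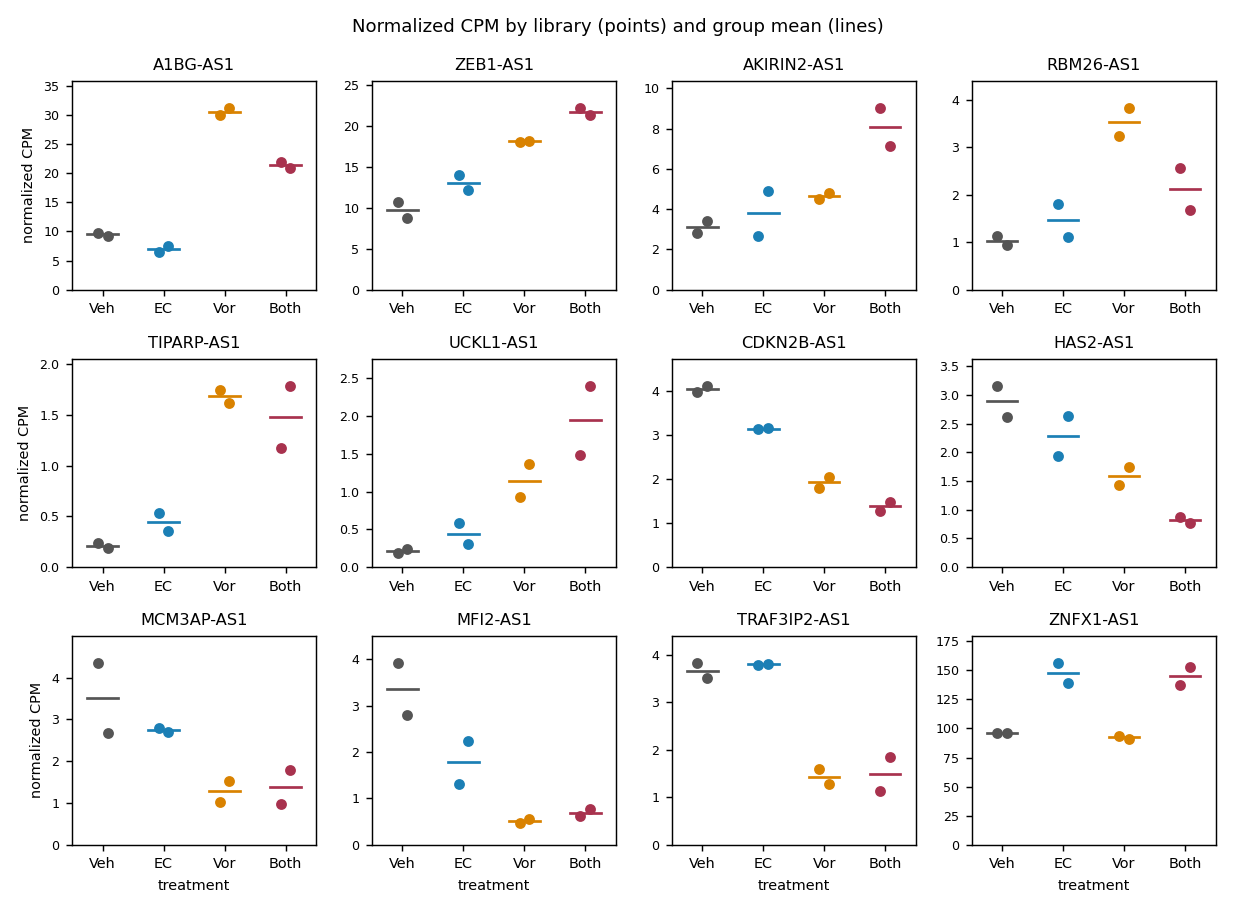
Normalized CPM of the 11 antisense genes called against vehicle with vorinostat or the combination, and of ZNFX1-AS1, in each library (points) with the group mean (line). Veh is vehicle, EC is EC359, Vor is vorinostat and Both is the combination. Every vertical axis starts at 0 and has its own scale, and ZNFX1-AS1 is high in the 4 libraries with EC359 and not in those with vorinostat alone.

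The combination changed 9 of the 27 antisense genes against vehicle (33.3%), 5 higher and 4 lower, where 34.8% of all tested genes were called, 19.5% higher and 15.3% lower. The share was again near that of all genes, and 7 of the 9 came from the 23 genes of low average level, where 41.3% of all genes were called. The median log2 fold change was -0.11, with 12 genes above 0 and 15 below, against 0.07 for all genes. The comparisons of vorinostat and of the combination use the same vehicle libraries, so their values are not independent. A1BG-AS1 rose with the combination by a log2 fold change of 1.17 (SE 0.13, adjusted p = 5.1e-05, edgeR), TIPARP-AS1 by 2.78 (SE 0.51, adjusted p = 0.0010, edgeR) and UCKL1-AS1 by 3.17 (SE 0.56, adjusted p = 0.00078, edgeR). Among the genes that fell, CDKN2B-AS1 had a log2 fold change of -1.54 (SE 0.25, adjusted p = 0.00050, edgeR), MFI2-AS1 one of -2.27 (SE 0.41, adjusted p = 0.00086, edgeR) and TRAF3IP2-AS1 one of -1.30 (SE 0.30, adjusted p = 0.0037, edgeR). RBM26-AS1, at 1.03 (SE 0.37, adjusted p = 0.033, edgeR), and MCM3AP-AS1, at -1.34 (SE 0.39, adjusted p = 0.012, edgeR), did not pass. At an adjusted p under 0.05 with no fold threshold, 16 of the 27 passed (edgeR), where 69.1% of all genes did. With 1 library left out, 4 to 11 genes were called, the fewest without vehicle 1.

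ZEB1-AS1, HAS2-AS1 and AKIRIN2-AS1 were called with the combination and not with vorinostat alone, and the difference between these treatments passed the test for none of them. ZEB1-AS1 was at 10.7 and 8.69 CPM with vehicle, 14.0 and 12.1 with EC359, 18.1 and 18.2 with vorinostat, and 22.2 and 21.3 with the combination. The groups stood in this order without overlap. Its log2 fold change was 1.17 with the combination (SE 0.15, adjusted p = 0.00011, edgeR) and 0.90 with vorinostat (SE 0.15, adjusted p = 0.00064, edgeR), and the difference between them was 0.26 (SE 0.15, adjusted p = 0.21, edgeR). ZEB1 encodes a transcription factor of the epithelial to mesenchymal transition. It was at 86.2 and 80.8 CPM with vehicle, 208 and 142 with EC359, 43.2 and 46.1 with vorinostat, and 74.2 and 75.0 with the combination. With EC359 ZEB1 had a log2 fold change of 1.07 (SE 0.16, adjusted p = 0.0021, edgeR), and ZEB1-AS1 had a value of the same sign, 0.44 (SE 0.15, adjusted p = 0.086, edgeR). In the combination against vorinostat the value of ZEB1 was 0.74 (SE 0.16, adjusted p = 0.0098, edgeR), again of the same sign as that of ZEB1-AS1. With vorinostat they parted, ZEB1 having a log2 fold change of -0.90 (SE 0.16, adjusted p = 0.00097, edgeR).

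HAS2-AS1 was at 3.16 and 2.62 CPM with vehicle, 1.94 and 2.64 with EC359, 1.44 and 1.74 with vorinostat, and 0.870 and 0.766 with the combination. The combination libraries were the lowest of all, with a log2 fold change against vehicle of -1.81 (SE 0.34, adjusted p = 0.0011, edgeR). HAS2, the hyaluronan synthase, was at 32.3 and 31.6 CPM with vehicle, 5.35 and 5.48 with vorinostat, and 7.32 and 6.84 with the combination. HAS2 fell by both, with log2 fold changes of -2.56 (SE 0.15, adjusted p = 1.1e-06, edgeR) and -2.17 (SE 0.14, adjusted p = 1.6e-06, edgeR). The difference of HAS2-AS1 between the combination and vorinostat was -0.96 (SE 0.35, adjusted p = 0.070, edgeR).

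AKIRIN2-AS1 was at 2.83 and 3.41 CPM with vehicle, 2.64 and 4.92 with EC359, 4.47 and 4.80 with vorinostat, and 9.01 and 7.15 with the combination. It was highest with both drugs, with a log2 fold change of 1.37 (SE 0.29, adjusted p = 0.0025, edgeR) against vehicle and of 0.80 (SE 0.28, adjusted p = 0.064, edgeR) against vorinostat. AKIRIN2, a nuclear factor needed for proteasome import into the nucleus, moved the same way by 0.96 (SE 0.11, adjusted p = 6.1e-05, edgeR). Since AKIRIN2-AS1 could not be placed, its overlap with AKIRIN2 could not be checked. The AKIRIN2-AS1 call was lost without vehicle 1, vehicle 2 or combination 1 (adjusted p = 0.027, 0.013 and 0.030, edgeR), and TRAF3IP2-AS1 likewise (adjusted p = 0.026, 0.017 and 0.019, edgeR). HAS2-AS1, MFI2-AS1 and UCKL1-AS1 were lost without vehicle 1 (adjusted p = 0.011, 0.012 and 0.012, edgeR), and TIPARP-AS1 without vehicle 1 or vehicle 2 (adjusted p = 0.011 and 0.015, edgeR). The combination calls of A1BG-AS1, CDKN2B-AS1 and ZEB1-AS1 held under each alternative.

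EC359 alone called none of the 27 antisense genes, where 3.67% of all tested genes were called. At an unadjusted p under 0.05, 6 of the 27 antisense genes (edgeR) and 30.9% of all genes passed, and DESeq2 also called none. At an adjusted p under 0.05 with no fold threshold, 2 of the 27 and 16.7% of all genes passed (edgeR). The median log2 fold change was -0.32, with 8 genes above 0 and 19 below, against a median of -0.02 for all genes. The addition of EC359 to vorinostat likewise called none by either tool, where 4.25% of all genes were called, and 9 of the 27 antisense genes and 40.5% of all genes had an unadjusted p under 0.05 (edgeR). At an adjusted p under 0.05 with no fold threshold, 3 of the 27 and 28.4% of all genes passed there (edgeR). The interaction of the drugs called none by either tool, where 2.1% of all genes were called, and 2 of the 27 antisense genes and 22.4% of all genes had an unadjusted p under 0.05 (edgeR). The lowest adjusted p of the interaction was 0.16 (edgeR), in NPPA-AS1, with a value of 2.27 (SE 0.84).

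ZNFX1-AS1, now called ZFAS1, had the lowest adjusted p with EC359. It hosts small nucleolar RNAs in its introns and had the most reads of the family. Its level was 95.7 and 96.1 CPM with vehicle, 156 and 139 with EC359, 93.8 and 91.1 with vorinostat, and 138 and 153 with the combination. The 4 libraries with EC359 lay above the 4 without it, whether or not vorinostat was present. The log2 fold change was 0.62 with EC359 (SE 0.10, adjusted p = 0.0029, edgeR) and 0.65 for the combination against vorinostat (SE 0.10, adjusted p = 0.0017, edgeR), both under the fold threshold. With vorinostat it was -0.05 (SE 0.10, adjusted p = 0.65, edgeR). ZNFX1, an antiviral RNA helicase, had values of 0.27 (SE 0.14, adjusted p = 0.21, edgeR) and -0.11 (SE 0.14, adjusted p = 0.60, edgeR) in the same comparisons with EC359. UBAC2-AS1, named here after its values were seen, was the other gene with an adjusted p under 0.05 for EC359. It was at 5.48 and 5.28 CPM with vehicle and 2.97 and 3.65 with EC359, a log2 fold change of -0.70 (SE 0.21, adjusted p = 0.048, edgeR).

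TP73-AS1 and TTC28-AS1 were the other genes with the most reads. TP73-AS1, which GENCODE lists as a transcribed pseudogene, was at 12.9 and 15.4 CPM with vehicle, 12.2 and 13.7 with EC359, 11.1 and 10.8 with vorinostat, and 7.93 and 7.46 with the combination. It was lowest with both drugs, with a log2 fold change of -0.88 (SE 0.16, adjusted p = 0.00083, edgeR), under the fold threshold. TTC28-AS1 was at 6.66 and 6.12 CPM with vehicle, 4.04 and 6.29 with EC359, 8.44 and 8.67 with vorinostat, and 7.22 and 5.11 with the combination, and passed no test. ST7-AS1, antisense to a candidate tumor suppressor, was at 0.897 and 0.701 CPM with vehicle and 0.256 and 0.204 with the combination, a log2 fold change of -1.77 (SE 0.67, adjusted p = 0.040, edgeR).

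**Figure D3:**
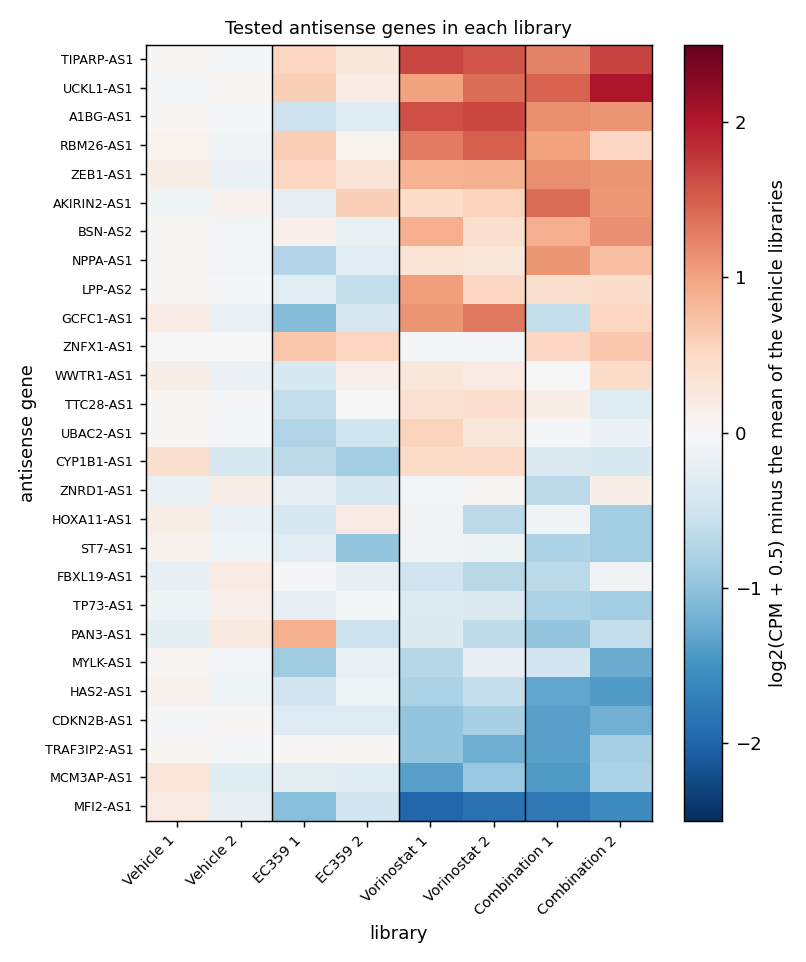
Level of the 27 tested antisense genes (rows) in each of the 8 libraries (columns), as log2(CPM + 0.5) minus the mean of the vehicle libraries, ordered by the mean over the 4 libraries with vorinostat. Genes at the top (red) are higher and genes at the bottom (blue) are lower in those libraries, with TIPARP-AS1 first and MFI2-AS1 last, and PAN3-AS1 differs between its EC359 libraries.

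Over both vorinostat treatments, 7 of the 27 genes had all 4 libraries with vorinostat above the 4 without it, and 6 had all 4 below. The 13 genes are 48.1% of the tested genes, and the 4 libraries were apart for 59.3% of all tested genes. The 7 above were A1BG-AS1, BSN-AS2, LPP-AS2, NPPA-AS1, TIPARP-AS1, UCKL1-AS1 and ZEB1-AS1, of which BSN-AS2 had 0 to 15 reads and LPP-AS2 was named after its values were seen, as was BSN-AS2. Without vorinostat, BSN-AS2 had 0 to 3 reads, NPPA-AS1 2 to 11, TIPARP-AS1 4 to 13 and UCKL1-AS1 4 to 14. These genes passed the filter on low counts only through libraries with vorinostat. Their place above is therefore partly fixed by the filter. The 6 below were CDKN2B-AS1, HAS2-AS1, MCM3AP-AS1, MFI2-AS1, TP73-AS1 and TRAF3IP2-AS1.

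The antisense genes were next set beside their sense genes, with 25 pairs in which both were tested. With vorinostat, 1 pair was called in the same direction (TRAF3IP2-AS1 and TRAF3IP2) and 1 in opposite directions (CDKN2B-AS1 and CDKN2B). The antisense gene alone was called in 6 pairs, the sense gene alone in 8 and neither in 9. Of the 25 sense genes 2 were called higher and 8 lower, where 16.8% of all genes were called higher and 13.3% lower, and the difference between sense and antisense genes was not tested. With the combination, HAS2-AS1 and HAS2 were called in the same direction and CDKN2B-AS1 and CDKN2B in opposite directions. Here the antisense gene alone was called in 7 pairs, the sense gene alone in 7 and neither in 9. With EC359 the sense gene alone was called in 2 pairs, and in the combination against vorinostat no gene of a pair was called.

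Across the 25 pairs Pearson's r between the log2 fold changes was 0.43 with EC359, 0.35 with vorinostat, 0.51 with the combination and -0.01 for the combination against vorinostat. The genes are not independent replicates, the pair values come from the same libraries, and overlapping exons can share reads. BSN-AS2, with 0 to 15 reads and no call, had a log2 fold change of 2.42 with vorinostat, beside 2.23 for BSN. Both genes had higher values still with the combination. BSN-AS2 passed the filter only through libraries with vorinostat, and a pair this far from 0 can raise r. Since r was not computed without this pair or for unrelated pairs of genes, these r values are a description only. At an adjusted p under 0.05 with no fold threshold (edgeR), 4 pairs moved the same way with vorinostat and 5 moved apart. The 5 were CDKN2B-AS1, LPP-AS2, RBM26-AS1, UCKL1-AS1 and ZEB1-AS1 with their sense genes, and in all except CDKN2B-AS1 the antisense gene rose and the sense gene fell. LPP-AS2 was at 3.21 and 2.99 CPM with vehicle and 6.89 and 4.63 with vorinostat, and LPP, a focal adhesion protein, was at 69.6 and 63.2 against 26.7 and 29.9. Their log2 fold changes with vorinostat were 0.89 (SE 0.26, adjusted p = 0.014, edgeR) and -1.23 (SE 0.11, adjusted p = 1.5e-05, edgeR). With the combination, 8 pairs moved the same way at this threshold and 2 moved apart, CDKN2B-AS1 and UCKL1-AS1 with their sense genes. Of all single genes, 65.5% passed this threshold with vorinostat and 69.1% with the combination. No such count was made for unrelated pairs of genes, so these pair counts are a description only.

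**Figure D4:**
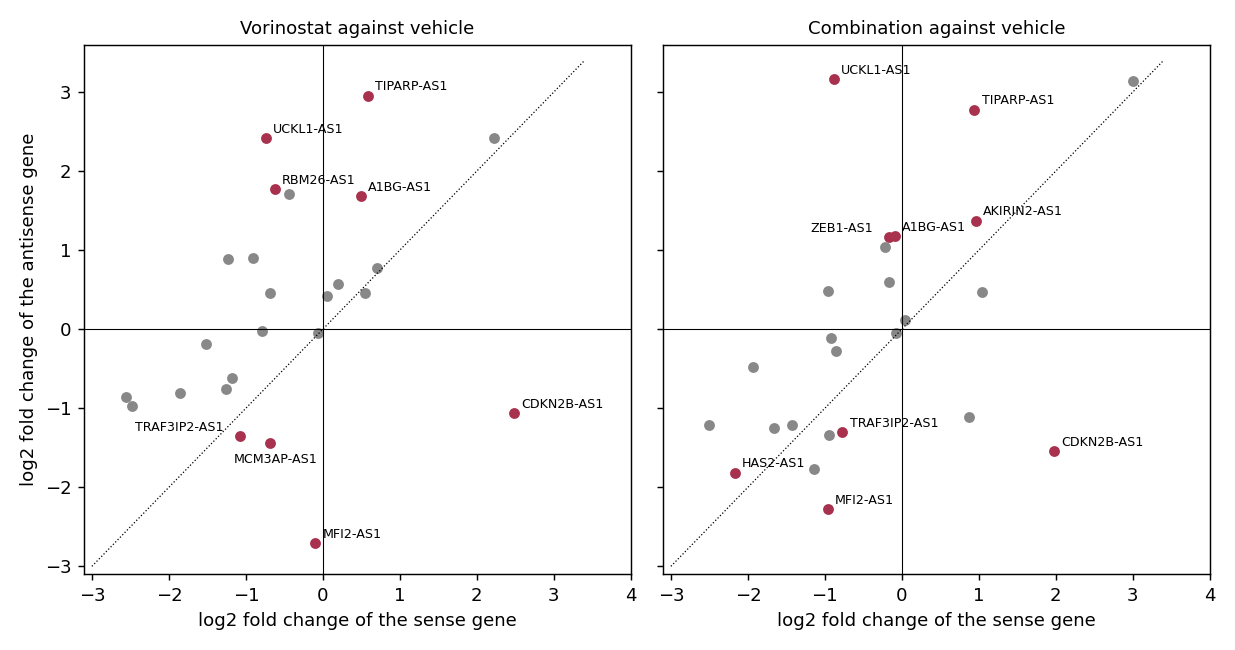
Log2 fold change against vehicle of the antisense gene (vertical axis) and of its sense gene (horizontal axis) in the 25 pairs with both tested, for vorinostat and for the combination. Red points are antisense genes that were called, gray points are the others, and the dotted line marks equal change. CDKN2B-AS1 stands alone at the lower right of both panels, below 0 with its sense gene far above 0.

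The ratio of antisense to sense reads within a library does not depend on the normalization. It was higher in all 4 libraries with vorinostat than in the 4 without it in 9 of the 25 pairs, lower in 2 and overlapping in 14. No such share was computed for other pairs, so the 11 are a description, and for single genes the CPM of these libraries were apart in 59.3% of all tested genes. The 9 were A1BG-AS1, FBXL19-AS1, HAS2-AS1, LPP-AS2, RBM26-AS1, TIPARP-AS1, UBAC2-AS1, UCKL1-AS1 and ZEB1-AS1, and FBXL19-AS1 was named after its values were seen. For ZEB1-AS1 the reads per 1000 reads of ZEB1 were 124 and 108 with vehicle, 67.4 and 85.4 with EC359, 418 and 394 with vorinostat, and 299 and 284 with the combination. EC359 and vorinostat thus stood on either side of vehicle in this pair. For RBM26-AS1 the ratio was 12.5 and 12.0 with vehicle, 12.8 and 12.4 with EC359, 64.1 and 65.2 with vorinostat, and 37.0 and 22.1 with the combination.

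CDKN2B-AS1 and MFI2-AS1 were the 2 pairs with a lower ratio. CDKN2B-AS1 had 61.3 and 63.9 reads per 1000 of CDKN2B with vehicle and 86.4 and 114 with EC359, against 4.90 to 5.92 over the 4 libraries with vorinostat or both drugs. The ratio was nearly the same in the 4 libraries with vorinostat. MFI2-AS1 had 1361 and 1034 reads per 1000 of MFI2 with vehicle and 865 and 1023 with EC359, against 205 and 188 with vorinostat and 462 and 500 with the combination. Of the genes in these 11 pairs, UBAC2-AS1 crossed no gene of the other strand in GENCODE. It had 42.0 and 38.8 reads per 1000 of UBAC2 with vehicle, 24.9 in both EC359 libraries, 99.9 and 80.1 with vorinostat, and 70.7 and 71.4 with the combination.

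**Figure D5:**
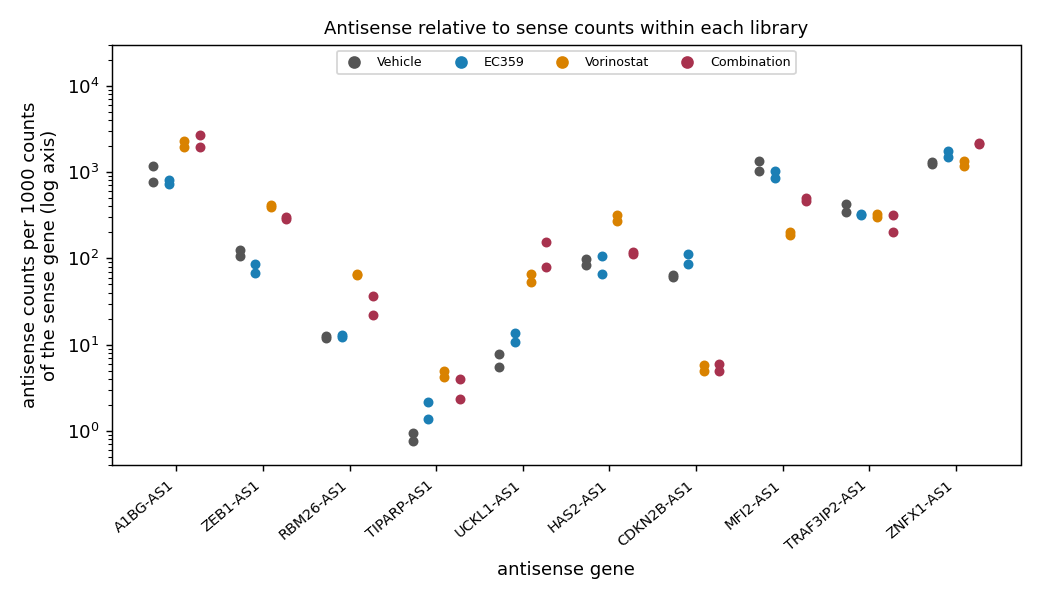
Antisense reads per 1000 reads of the sense gene in each library, on a log axis, for 10 pairs, colored by treatment. The ratio of CDKN2B-AS1 drops from 61.3 to 114 in libraries without vorinostat to 4.90 to 5.92 in those with it, that of ZEB1-AS1 goes from 67.4 to 124 up to 284 to 418, and that of TRAF3IP2-AS1 overlaps between treatments.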

How the data were processed

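The authors sequenced 50 bp single-end reads of 8 BT-549 libraries and aligned them to hg19 with TopHat2 2.0.8b. They deposited raw read counts per RefSeq gene symbol from HTSeq, without normalization. The HTSeq version, mode and strand setting are not given in the sources used here. The 5 summary lines of HTSeq were not used as genes, and 85.1% to 88.1% of uniquely aligned reads fell on genes.

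Genes passing filterByExpr (13694 of 23228) were scaled by TMM and fitted in edgeR 4.0.16 (R 4.3.3) with 1 mean per group over the 8 libraries. Comparisons used the quasi-likelihood test with Benjamini-Hochberg adjustment over all tested genes. Calls needed an adjusted p under 0.01 and, except for the interaction, a log2 fold change beyond 1 in either direction. The SE is the size of the log2 fold change over the root of F. On simulated data with 13389 genes, for vorinostat against vehicle, 186 of 200 genes changed 4-fold were recovered (93%) and 0 others were called. These genes were drawn over all levels and varied by the fitted trend alone. The shares therefore do not describe genes of low level or smaller changes.

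The members and lists were chosen with earlier results of these data known. The genes named are, per comparison, the 8 highest and 8 lowest called members with average log2 CPM from 0 up and no overlap between libraries, members called in the interaction, a list of well-known antisense genes, the 5 members with the highest mean CPM, pairs called in opposite directions, and the sense genes of all these. Genes named beyond this rule were chosen after their values were seen. A comparison with symbols starting with LINC was void, since 0 were listed. Overlaps came from GENCODE 44 on GRCh37, and promoters from RefSeq (GRCh38.p14), placed on GRCh37 by exact match (51 of 52). The RefSeq models used in counting may differ from these, and 18 of the 75 genes now have another symbol.

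Alternatives were RLE and total-count scaling, DESeq2 1.42.0, other filters and thresholds, a replicate block, and leaving out each library. The study's other experiments were not analysed here.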

Additional observations from a re-analysis of the deposited data

How the results depend on the processing

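Of 17 calls of single genes, each under 15 alternatives, 218 of 255 values stayed past the threshold, 37 did not and 0 changed direction. The alternatives include leaving out libraries of groups not compared, under which no call was lost. Most of the 37 losses came from leaving out a library of the groups compared, so the 218 overstate how firm the calls are. Leaving out 1 library gave 2 to 8 genes called with vorinostat and 4 to 11 with the combination, and 0 to 0 with EC359, for the combination against vorinostat and for the interaction. Pairs called in the same direction then numbered 0 to 1 with vorinostat and 0 to 2 with the combination, and pairs called in opposite directions 0 to 1 and 1 to 1. A library left alone in its group was assumed to vary like the other groups. At an adjusted p under 0.05 with no fold threshold (edgeR), 2 of the 27 genes were called with EC359 (16.7% of all genes), 11 with vorinostat (65.5%), 16 with the combination (69.1%) and 3 for the combination against vorinostat (28.4%), and the pairs with the same and with opposite directions were 4 and 5 with vorinostat and 8 and 2 with the combination. DESeq2 gave 0 opposite pairs with vorinostat, since CDKN2B-AS1 missed its threshold there, and 17 of the 53 antisense genes it fitted had no adjusted p. Total-count scaling gave 2 pairs with the same direction with the combination. Pairs of unrelated genes were not counted at any setting. Among the 3 pairs whose antisense gene crosses no gene of the other strand in GENCODE, 0 were called in the same or in opposite directions with either treatment. None of these 3 antisense genes was called, and PAN3-AS1 starts inside PAN3 by RefSeq. The 0 therefore cannot show whether strand matters. With the replicate block 7 genes were called with vorinostat and 9 with the combination, and MCM3AP-AS1 lost its call (adjusted p = 0.015, edgeR). The numbers are not shown to pair the samples, since the correlations of same-numbered libraries ranged from -0.173 to 0.231. A crossed block, chosen after seeing the data, called 8 and 10 genes. Low counts limit most of the family, with 48 of 75 genes below the filter.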
